A study of Mus musculus with 8 samples.

Results

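Transcript levels of CDK inhibitors and D-type cyclins were compared in cultured skin fibroblasts of 2 mouse strains, here called Nd2-mutant and control. The group comprised 10 genes, namely Cdkn1a, Cdkn1b, Cdkn1c, Cdkn2a, Cdkn2b, Cdkn2c, Cdkn2d, Ccnd1, Ccnd2 and Ccnd3, and its probes were chosen by gene symbol alone. Of the 25697 probes on the array, which carry 18138 gene symbols, 20 belonged to these 10 genes. Of the 20 probes, 14 were tested because they lay above background in all 4 mice of one strain or of both, and each of the 10 genes had at least 1 tested probe.

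RNA was hybridised to Illumina MouseRef-8 v2.0 arrays, 1 per mouse, from 4 mice of each strain, all 12 months old. Nd2-mutant mice were of the conplastic strain C57BL/6J-mtALR/LtJ and controls of the conplastic strain C57BL/6J-mtAKR/J. A conplastic strain combines the nuclear genome of one strain with the mitochondrial DNA of another, so that both strains shared the C57BL/6J nucleus and both carried mitochondrial DNA of a donor, ALR/LtJ or AKR/J. The mutant strain differs by a leucine-to-methionine exchange in Nd2, a subunit of complex I of the respiratory chain. Each strain was represented by 2 males (Nd2-mutant mice 28 and 32, control mice 16 and 17) and 2 females (Nd2-mutant mice 34 and 35, control mice 15 and 37). The primary cells were grown in DMEM with 10% FCS, and no treatment is named in the labels. The comparison therefore addresses the basal level of these genes in cells that were dissociated from skin and then cultured.

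Progression from G1 into S phase depends on cyclin-dependent kinases (CDKs). D-type cyclins, which growth factors induce, activate Cdk4 and Cdk6, and these kinases phosphorylate the retinoblastoma protein and thereby release E2F transcription factors. Inhibitors of the Cip/Kip family (p21, p27 and p57, encoded by Cdkn1a, Cdkn1b and Cdkn1c) bind complexes of cyclins and CDKs, whereas inhibitors of the INK4 family (p16, p15, p18 and p19, encoded by Cdkn2a, Cdkn2b, Cdkn2c and Cdkn2d) bind Cdk4 and Cdk6 themselves. In fibroblasts, p21 and p16 are widely used markers of cellular senescence, a lasting arrest of the cell cycle.

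For none of the members did a difference between the strains pass the test. Of the 14 tested probes, 0 reached an adjusted p under 0.05 in limma, 0 reached an unadjusted p under 0.05 and 0 separated the strains without overlap. Over all 10414 tested probes, the corresponding shares were 0% at the adjusted threshold, 7.63% at the unadjusted threshold and 4.37% without overlap. The methods' t-test likewise gave 0 member probes at either threshold. With 1 probe per gene (that of the highest mean), the log2 fold change, Nd2-mutant minus control, was negative for 7 of 10 members and had a median of -0.07, against -0.02 over the 8003 tested genes, of which 4285 were negative. It ranged from -0.20 to 0.47 over the 7 inhibitors and from -0.42 to -0.07 over the 3 D-type cyclins. The intervals of the differences follow with each gene, since a missed threshold does not show that the strains had equal levels.

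On each array, 10663 to 11350 probes (41.5% to 44.2%) lay above background at a detection p-value under 0.01. All 4 Nd2-mutant arrays detected more probes (10973 to 11350) than any control array (10663 to 10837), and the cause was not tested. The array of control mouse 15 had the lowest mean correlation with the others (0.934, against 0.963 to 0.974 for the remaining 7), and the log2 fold change of each member probe is also given without this mouse. As markers of the labelled cell type, 13 of 14 fibroblast genes on the array were detected on all 8 arrays, while 2 of 11 keratinocyte, 4 of 12 macrophage, 5 of 10 endothelial, 7 of 9 smooth muscle and pericyte and 1 of 7 adipocyte genes were. Of the 14 tested fibroblast genes, 3 were higher in Nd2-mutant cells at an unadjusted limma p under 0.05 and 0 lower, against 9.06% of all tested genes in either direction. The summed intensity of the smooth muscle and pericyte genes, which cultured fibroblasts also express in part, was 24790.4 to 28543 in Nd2-mutant and 24037 to 37733 in control cultures, highest in mouse 37. Bright Acta2 probes dominate this sum. Mouse 15 was highest for Mcam (462 with its brightest probe), Myh11 (227) and Des (135.5). For Acta2 the probes differed, and mouse 15 was lowest with ILMN_2710354 (780) and ILMN_2710353 (540). With the brightest, ILMN_2693895, mouse 15 shared the highest value with Nd2-mutant mouse 35 (13935). With ILMN_2923445 it was at 5649, against a lowest value of 5591 in Nd2-mutant mouse 35. Actg2 and Tagln were highest in mouse 16 and Cspg4 in mouse 37. Of the 7 tested genes of this list, 4 were lower in Nd2-mutant cells at an unadjusted limma p under 0.05, against 9.06% of all tested genes in either direction. Macrophage markers summed to 350.5 to 2102 in Nd2-mutant cultures, highest in mouse 35, and to 275 to 667 in control cultures. For endothelial markers the sums were 404 to 939 and 422 to 2315, highest in mouse 15, and 1 of 6 tested genes was lower in Nd2-mutant cells at the unadjusted threshold. At this threshold, 0 of 7 tested macrophage, 0 of 2 keratinocyte and 0 of 1 adipocyte genes were higher or lower. Keratinocyte markers summed to 204 to 1205 and 341 to 989, and Ivl, Sfn and Krt2-1 were not detected on any array. The part of these cells in the values of the members was not tested. In such bulk samples, fewer cells of a type and less RNA per cell cannot be told apart.

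The Cip/Kip inhibitor Cdkn1a (chromosome 17) encodes p21, a target of p53 that accumulates after DNA damage and in senescence. RefSeq (GRCm38.p6) places 2 transcription starts at this gene. The 250 bases before each are shown because p53 is the best known inducer of the gene. Capitals mark letters that match a p53 response element (1 exact half-site beside another with at most 1 mismatch and 0 bases between them, either strand) or GGGCGG, a box bound by Sp1-type factors (either strand, not overlapping the former). The p53 match lies 51 to 32 bases before the upstream start, and such a match was found in 0.0761% of 32851 windows of this length. GGGCGG was found 2 times before the downstream start and in 32.7% of all windows. A match is a description of the letters, and the arrays do not measure binding.
Cdkn1a upstream start, chr17:29090729-29090978 (+): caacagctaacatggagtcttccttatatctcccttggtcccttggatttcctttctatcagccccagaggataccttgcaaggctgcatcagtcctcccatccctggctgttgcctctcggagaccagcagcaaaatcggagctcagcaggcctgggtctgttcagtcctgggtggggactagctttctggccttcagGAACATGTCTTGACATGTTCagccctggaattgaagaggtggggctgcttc
Cdkn1a downstream start, chr17:29093519-29093768 (+): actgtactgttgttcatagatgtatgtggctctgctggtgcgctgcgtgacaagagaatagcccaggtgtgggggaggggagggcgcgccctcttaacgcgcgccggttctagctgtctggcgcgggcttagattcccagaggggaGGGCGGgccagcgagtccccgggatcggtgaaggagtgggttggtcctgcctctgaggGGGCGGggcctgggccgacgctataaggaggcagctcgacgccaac

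All 3 Cdkn1a probes were detected on all 8 arrays. Values are background-subtracted, quantile normalized intensities on a linear scale, listed for Nd2-mutant mice 28, 32, 34 and 35 and control mice 15, 16, 17 and 37, and levels of different probes are not comparable. For ILMN_2634083 the intensity was 1720.2, 1401, 1092 and 1044 in the Nd2-mutant mice and 979, 2027, 1325 and 1834 in the controls. The lowest and the highest of the 8 values were both from controls, mice 15 and 16, so the strains overlapped fully. Means were 1315 ± 313 in Nd2-mutant and 1541 ± 478 in control cells (SD, n = 4), and the log2 fold change, on the scale of log2(intensity + 16), was -0.20 (SE 0.25, 95% interval -0.75 to 0.35, limma adjusted p = 0.815).

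The same order of controls was seen with ILMN_2846775, at 674, 659, 662 and 519.8 in Nd2-mutant and 463, 1124, 719 and 847 in control mice. Here 3 of the 4 Nd2-mutant values lay between 659 and 674, within the range of the controls. The log2 fold change was -0.26 (SE 0.24, 95% interval -0.79 to 0.27, limma adjusted p = 0.749). ILMN_2846776 gave 267, 204, 183 and 211 in Nd2-mutant mice and 152, 256, 181 and 292 in controls, with a log2 fold change of 0.01 (SE 0.21, 95% interval -0.46 to 0.47, limma adjusted p = 0.995). The 3 probes thus differed in the size and, for the last, in the sign of a difference that was smaller than the spread between mice. In exact permutation tests of 4 against 4 mice (2-sided, smallest possible p = 0.0286), p was 0.543, 0.429 and 0.971. Mouse 15 had the lowest intensity of the 8 for each Cdkn1a probe. Without it, the log2 fold changes were -0.40, -0.48 and -0.14, and ILMN_2846775 had an unadjusted limma p of 0.0199 (adjusted p = 0.602). Without control mouse 16, the highest for ILMN_2634083 and ILMN_2846775, these 2 probes were at -0.05 and -0.07. With single mice left out, the ranges were -0.40 to -0.05 for ILMN_2634083, -0.48 to -0.07 for ILMN_2846775 and -0.14 to 0.15 for ILMN_2846776.

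Cdkn1b (chromosome 6) encodes p27, which restrains Cdk2 and accumulates in resting cells. Its tested probe ILMN_2638428 had intensities of 83.1, 65.7, 47.1 and 64.1 in Nd2-mutant and 77.3, 52.6, 28.3 and 22.7 in control mice. Control mouse 15 lay between the 2 highest mutant values, whereas controls 17 and 37 lay below all 4 mutants. Means were 65.0 ± 14.7 in Nd2-mutant and 45.2 ± 25.0 in control cells (SD, n = 4). The log2 fold change of 0.47 (SE 0.27, 95% interval -0.12 to 1.07, limma adjusted p = 0.648) was the largest positive value among the members and was not beyond the spread between mice (exact permutation p = 0.229). It was 0.71 without mouse 15 (limma adjusted p = 0.602) and 0.76 with array weights (limma adjusted p = 0.582), both below 0.05 before adjustment, but 0.28 without control mouse 37, the lowest value with a single mouse left out. Within the sexes it was 0.71 in males and 0.24 in females. The other 2 Cdkn1b probes, ILMN_2923960 and ILMN_1228598, were not detected on any array.

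Cdkn1c (chromosome 7), an imprinted gene, encodes p57. Its single probe ILMN_2708203 had intensities of 189, 119.7, 143 and 258 in Nd2-mutant and 219, 321, 161 and 127 in control mice, so that the values of both strains spread over a similar range. The 8 mice differed up to 2.68-fold, with control 16 highest and Nd2-mutant 32 lowest. The log2 fold change was -0.18 (SE 0.29, 95% interval -0.82 to 0.45, limma adjusted p = 0.852), with an exact permutation p of 0.6. It was 0.04 without control mouse 16 and -0.13 without control mouse 15.

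**Figure D1:**
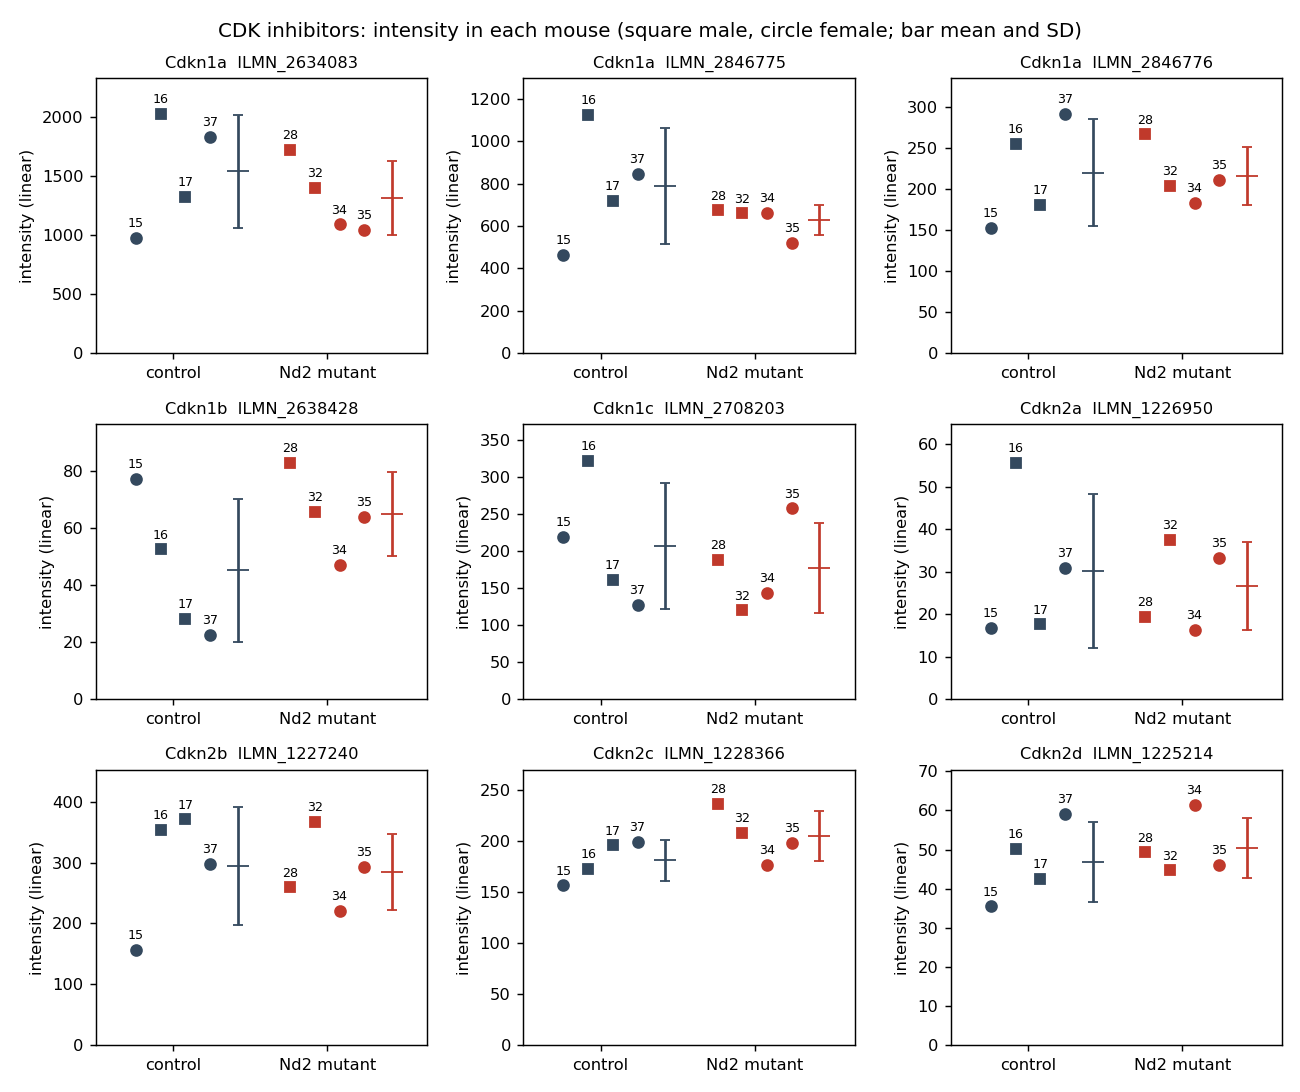
Intensity of each tested probe of the 7 CDK inhibitor genes in every mouse, with the mean and SD of each strain (4 mice per strain, squares male, circles female, numbers the mice). The strains overlap for each of the 9 probes, and control mice span the wider range for the 3 Cdkn1a probes.

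Among the INK4 inhibitors, Cdkn2a, Cdkn2b and Cdkn2c are annotated to chromosome 4. Cdkn2a encodes p16 and, from another first exon and reading frame, p19Arf, which stabilises p53. The probes carry the annotation of transcript variant 1, and which of the products they measure was not resolved here. ILMN_1226950 was dim but detected on all 8 arrays, at 19.4, 37.5, 16.2 and 33.2 in Nd2-mutant and 16.8, 55.6, 17.6 and 30.8 in control mice. In either strain 2 mice were low and 2 higher, and control 16 was highest. The means were 26.6 ± 10.4 in Nd2-mutant and 30.2 ± 18.1 in control cells (SD, n = 4), with a log2 fold change of -0.07 (SE 0.27, 95% interval -0.67 to 0.52, limma adjusted p = 0.941). The interval leaves room for a difference in either direction (exact permutation p = 0.943). Without control mouse 15 the difference was -0.21, and without control mouse 16 it was 0.16, on the log2 scale. The other probe, ILMN_1221177, was detected on 1 array, that of control mouse 17.

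Cdkn2b encodes p15, an inhibitor of Cdk4 and Cdk6 that transforming growth factor beta induces. The window before its RefSeq start (GRCm38.p6) is shown for the 8 letters TGACGTCA in capitals, the full cyclic AMP response element, 46 to 39 bases before the start. These letters occur in 1.55% of the 32851 windows.
Cdkn2b start, chr4:89311033-89311282 (-): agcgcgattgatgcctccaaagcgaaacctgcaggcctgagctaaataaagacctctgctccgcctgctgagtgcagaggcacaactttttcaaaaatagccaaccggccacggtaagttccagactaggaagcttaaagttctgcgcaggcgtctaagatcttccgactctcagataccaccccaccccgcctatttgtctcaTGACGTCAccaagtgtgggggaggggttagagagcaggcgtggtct

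For Cdkn2b, ILMN_1227240 had intensities of 259, 366, 219.9 and 293 in Nd2-mutant and 157, 353, 371 and 298 in control mice. Control 15 was lowest and the remaining 7 mice lay between 219.9 and 371. The log2 fold change was -0.0047 (SE 0.26, 95% interval -0.58 to 0.57, limma adjusted p = 0.997). It was -0.26 without mouse 15 and turned positive without any 1 of Nd2-mutant mice 28 and 34 and control mice 16, 17 and 37, reaching 0.12 without control 17. In females alone it was 0.21 and in males alone -0.22.

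Cdkn2c (p18) and Cdkn2d (p19Ink4d), both INK4 inhibitors with roles in differentiating cells, varied least among the inhibitors. The Cdkn2c probe ILMN_1228366 had intensities of 236, 208, 177 and 198 in Nd2-mutant and 156, 172, 195 and 199 in control mice. Only Nd2-mutant mice 28 and 32 exceeded all controls. Its log2 fold change was 0.17 (SE 0.14, 95% interval -0.15 to 0.48, limma adjusted p = 0.739), and the exact permutation p was 0.171. Leaving out control mouse 15 gave 0.10 on the log2 scale. The Cdkn2d probe ILMN_1225214 had intensities of 49.3, 44.7, 61.5 and 46.1 in Nd2-mutant and 35.4, 50.2, 42.5 and 59.1 in control mice, a log2 fold change of 0.09 (SE 0.16, 95% interval -0.26 to 0.44, limma adjusted p = 0.873). That of Cdkn2d was -0.0042 without control mouse 15. The SD of log2 values over the 8 mice was 0.17 for Cdkn2c and 0.19 for Cdkn2d, against a median of 0.27 over all tested probes. ILMN_1215651, the other probe of Cdkn2c, was not detected on any array.

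Of the D-type cyclins, cyclin D1 (Ccnd1, chromosome 7 in the annotation of 1 of its probes) is the one most closely tied to growth factor signalling in fibroblasts. All 3 probes were detected on all 8 arrays. For ILMN_1221503, the intensity was 1072, 1319, 1763 and 1500.2 in Nd2-mutant and 1522, 2449, 1365 and 2405 in control mice. Controls 16 and 37 lay above all 4 Nd2-mutant mice, while controls 15 and 17 lay among them. Means were 1414 ± 292 in Nd2-mutant and 1935 ± 571 in control cells (SD, n = 4). This gave a log2 fold change of -0.42 (SE 0.23, 95% interval -0.94 to 0.09, limma adjusted p = 0.648).

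ILMN_2601471 showed the same arrangement of mice, at 874, 924, 1278 and 1115 in Nd2-mutant and 1082, 1787, 1069 and 1783 in control mice, with a log2 fold change of -0.41 (SE 0.22, 95% interval -0.90 to 0.07, limma adjusted p = 0.639). The third probe, ILMN_2669793, had 31.1, 61.5, 104 and 53.6 in Nd2-mutant and 83.2, 87.3, 77.3 and 136 in control mice, with a log2 fold change of -0.56 (SE 0.27, 95% interval -1.16 to 0.03, limma adjusted p = 0.639). Nd2-mutant mouse 28 was lowest for each of the 3 probes. Their exact permutation p-values were 0.171, 0.2 and 0.143, and the unadjusted limma p-values 0.0961, 0.0849 and 0.0617. All 3 were negative in males (-0.61, -0.61 and -0.70) and in females (-0.23, -0.22 and -0.43). They share 1 gene symbol and the same RNA and are not independent of each other. Only ILMN_2669793 carries a definition in the annotation, that of Ccnd1 mRNA. Leaving out single mice gave log2 fold changes of -0.57 to -0.30 for ILMN_1221503, -0.54 to -0.29 for ILMN_2601471 and -0.79 to -0.34 for ILMN_2669793, and leaving out control mouse 15 gave -0.52, -0.53 and -0.61.

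Cyclin D2 (Ccnd2, chromosome 6) was measured by ILMN_2700166, at 1711, 2202, 1722 and 1701 in Nd2-mutant and 2240.1, 2574, 1881 and 2075 in control mice. Of the Nd2-mutant mice, 28, 34 and 35 lay below all controls, whereas mouse 32 lay above controls 17 and 37. Means were 1834 ± 245 in Nd2-mutant and 2192 ± 293 in control cells (SD, n = 4). Its log2 fold change of -0.25 (SE 0.15, 95% interval -0.59 to 0.08, limma adjusted p = 0.661) had an exact permutation p of 0.0857, the smallest among the members. Without control mouse 15, Ccnd2 had a log2 fold change of -0.24.

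Cyclin D3 (Ccnd3, chromosome 17) was measured by ILMN_3131063, annotated to transcript variant 1, at 625, 769, 906 and 624 in Nd2-mutant and 748, 786, 734 and 777 in control mice. The controls lay close together (SD 24.1) inside the wider range of the mutants (SD 135). The log2 fold change was -0.07 (SE 0.15, 95% interval -0.41 to 0.26, limma adjusted p = 0.887), and -0.08 without control mouse 15. Both probes annotated to transcript variant 3 were dim, ILMN_2661849 being detected on no array and ILMN_1246473 on 1, that of Nd2-mutant mouse 32.

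**Figure D2:**
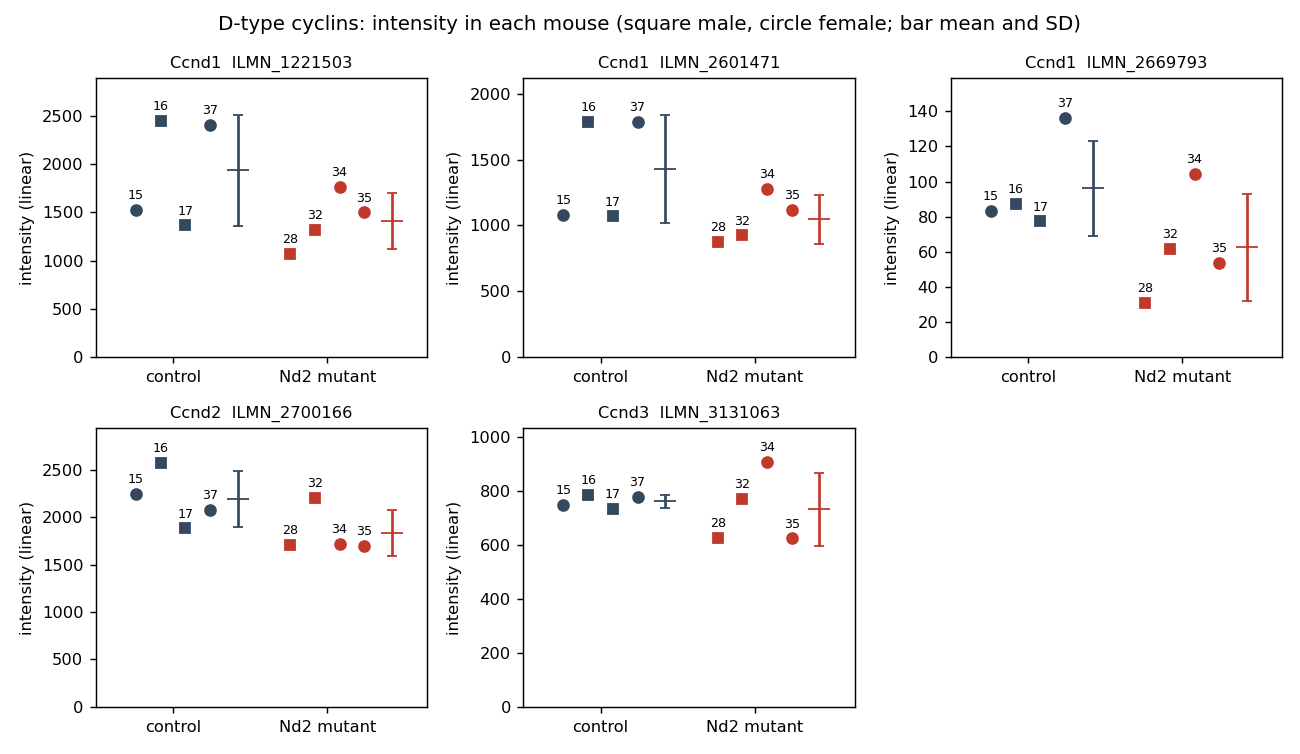
Intensity of each tested probe of Ccnd1, Ccnd2 and Ccnd3 in every mouse, with the mean and SD of each strain (4 mice per strain, squares male, circles female, numbers the mice). For the 3 Ccnd1 probes and Ccnd2 the control mean is higher, and mice of both strains overlap.

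**Figure D3:**
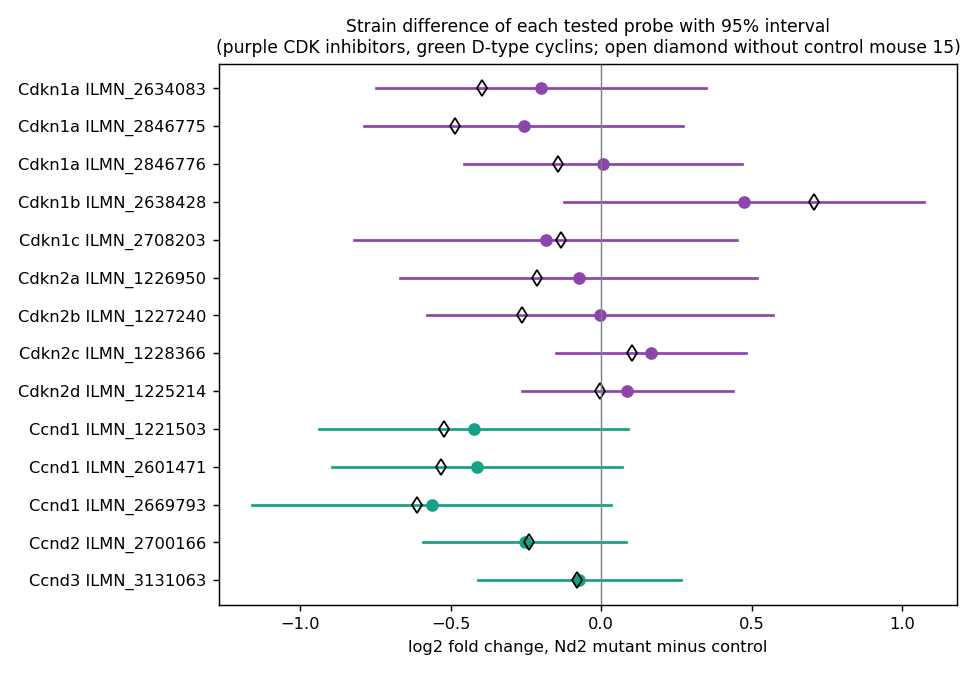
Log2 fold change (Nd2-mutant minus control) of the 14 tested member probes with its 95% limma interval. Purple marks CDK inhibitors, green D-type cyclins, and open diamonds the value without control mouse 15. Every interval includes 0, and the intervals of Cdkn1b and of ILMN_2669793 of Ccnd1 are among the widest.

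Member probes differed in how far the 8 mice spread. The SD of log2 values was highest for ILMN_2669793 of Ccnd1 (0.52, above that of 90.9% of tested probes) and for Cdkn1b (0.49, above 89.3%), followed by Cdkn1c (0.46) and Cdkn2a (0.42). It was lowest for Cdkn2c (0.17, above 16.1%) and Ccnd3 (0.17, above 17.5%). Control mouse 15 had the lowest of the 8 values for 6 of 14 member probes, those of Cdkn1a, Cdkn2b, Cdkn2c and Cdkn2d, and the highest for 0. Over all tested probes this mouse was lowest for 31.4% and highest for 26.5%. Control mouse 16 was highest for 7 of 14 member probes, of Cdkn1a, Cdkn1c, Cdkn2a, Ccnd1 and Ccnd2, against 15.7% of all tested probes. Probes of 1 gene share their RNA, so these counts describe 5 genes in the case of mouse 16 and 4 in that of mouse 15.

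**Figure D4:**
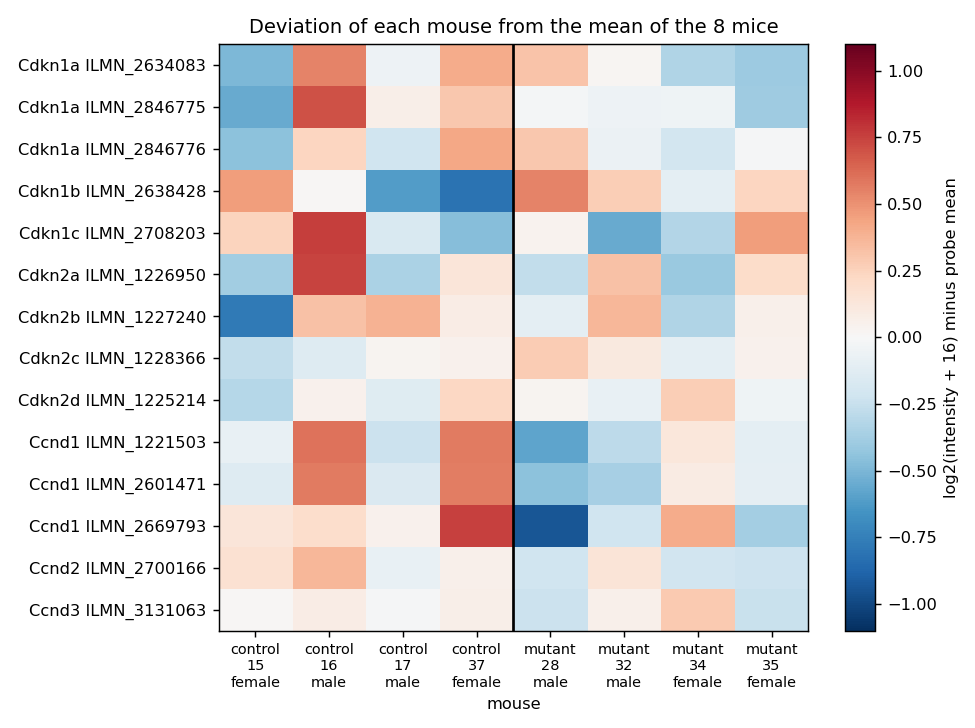
Deviation of each mouse from the mean of the 8 mice, on the scale of log2(intensity + 16), for the 14 tested member probes, with controls left of the line and Nd2-mutant mice right of it. Control mouse 16 is red for most probes and control mouse 15 blue for Cdkn1a and the INK4 genes.

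Between the sexes, with strain as a term in limma, 0 of 14 member probes had an unadjusted p under 0.05, against 8.31% of all tested probes, and 0 an adjusted p under 0.05, against 0.0192%. The smallest p was that of Cdkn2b (mean 337 in males and 242 in females, log2 difference, male minus female, 0.48, SE 0.22, adjusted p = 0.616). The interaction of strain and sex gave 0 of 14 member probes at an unadjusted p under 0.05, against 1.77% of all tested probes, and 0 at an adjusted p under 0.05, against 0.0096%. Cdkn1c had the largest interaction, with a log2 fold change of -0.55 in males and 0.18 in females (difference -0.74, SE 0.59, adjusted p = 0.9999 in limma).

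Across the 8 mice, 45 pairs of members were compared by correlation, with 1 probe per gene, and 0 had an exact permutation p under 0.05. The smallest was that of Cdkn2a and Ccnd2 (Pearson r = 0.61, exact permutation p = 0.106; Spearman rho = 0.29, exact permutation p = 0.501; Benjamini-Hochberg adjusted p = 0.708 and 0.894). Without mice 16 and 32, r was -0.09, so the value rested on these mice.

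For the members with the widest spread, the 3 probes of other genes with the most similar profile over the 8 arrays were named by the root mean square difference of mean-centred log2 values. For ILMN_2669793 of Ccnd1 these were probes of Ctgf (0.202), Raet1b (0.219) and Bdnf (0.231). For Cdkn1b they were Sfrp1 (0.187), Egfr (0.198) and Zmiz1 (0.198). These are descriptions over 8 arrays that share the normalization.

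Genes that act with the members were grouped into 7 lists of 153 genes, of which 146 were on the array and 110 were tested. In limma, 0 of 110 had an adjusted p under 0.05, as for all tested genes (0%), and 12 had an unadjusted p under 0.05 (6 higher and 6 lower in Nd2-mutant cells), against 9.06% of the 8003 tested genes. Some of the 12 rest on dim probes that passed the filter on detection only through the strain where they were higher, as given below. With each gene at its probe of highest mean, as for all list medians, the median log2 fold change was -0.08 over the 110 genes and -0.02 over all genes. Of the CDKs that the members bind, Cdk4 was not analysed here, and the single Cdk6 probe did not pass the filter on detection. Cdk2, the partner of cyclins E and A, had 4 tested probes, with log2 fold changes of -0.20, 0.13, -0.12 and 0.23. The Cdk2 probe at 0.13 was dim (10.8 to 30.3). It was detected on 4 Nd2-mutant and 2 control arrays, so it was tested only through the strain where it was higher. Cdk1, listed as Cdc2a, was at 0.39 (SE 0.22, limma adjusted p = 0.65). The list of G1 CDKs, cyclins E and A and the CDK-activating kinase also held Cdk1, cyclin B and Cdc25 genes. Its 9 tested genes included no cyclin A gene, and neither Cdk4, Cdk6 nor Cdk7. Of these 9 genes, 0 were at an unadjusted p under 0.05, and the median was -0.08. Pkmyt1, which encodes an inhibitory kinase of Cdk1, was at -0.30. Its probe was dim (10.2 to 34.3) and detected on 3 Nd2-mutant and 4 control arrays.

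The retinoblastoma gene Rb1, the main substrate of cyclin D kinases, was at 0.17 and 0.17 with its 2 probes. Of 13 tested RB family and E2F genes, 1 had an unadjusted p under 0.05, Mybl2, at 78.4 ± 9.96 in Nd2-mutant and 130.4 ± 30.6 in control cells (SD, n = 4), a log2 fold change of -0.61 (SE 0.18, limma adjusted p = 0.639). Mybl2 encodes a cell cycle transcription factor that E2F induces. The E2F partners Tfdp1 and Tfdp2 were at 0.53 and 0.36, and the list had a median of -0.07. Of 22 tested S phase and mitosis genes under E2F, 2 had an unadjusted p under 0.05. These were the replication licensing genes Mcm7, at -0.77 (SE 0.32, limma adjusted p = 0.639), and Cdt1, at -0.53 (SE 0.23, limma adjusted p = 0.639). The median of this list was 0.002, with 11 positive and 11 negative values (13 and 9 with each gene at its probe of smallest p).

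Trp53, which encodes the p53 that induces Cdkn1a, was at 0.32 (SE 0.22, limma adjusted p = 0.685). Mdm2, a p53 target whose product degrades p53, was at -0.39 and -0.25 with its 2 tested probes. Of 19 tested genes in the p53 list, 2 were higher at an unadjusted p under 0.05, Sesn2 (0.33 and 0.47) and Zmat3 (0.40). Mdm2 and the death receptor gene Tnfrsf10b were lower at this threshold, the latter at -0.45 and -0.30 with 2 probes and at 0.11 with the third. The adjusted p of each was 0.639 or above. The Tnfrsf10b probe at -0.45 was dim (5.9 to 29.3) and detected on 3 Nd2-mutant and 4 control arrays. The median over the p53 list was -0.10.

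Of 18 tested regulators of the INK4 genes, 2 had an unadjusted p under 0.05, the Polycomb gene Cbx2 (0.35) and the histone demethylase gene Kdm6b, listed as Jmjd3 (-0.47, and -0.84 with its other probe). The Cbx2 probe was dim (6.4 to 22.7) and detected on 4 Nd2-mutant and 0 control arrays, so it was tested only through the strain where it was higher. The Kdm6b probe at -0.47 was detected on 3 Nd2-mutant and 4 control arrays. Id3, which encodes an inhibitor of helix-loop-helix factors, was at -0.76 (SE 0.37, limma adjusted p = 0.639). Its log2 fold change was -0.10 in males and -1.42 in females (interaction of strain and sex, limma adjusted p = 0.9999). The Nd2-mutant females had the lowest Id3 intensities, 113 and 116. Id1, of the same family and named after its value was seen, had the lowest value of the lists (-1.67, limma adjusted p = 0.639). Of 17 tested genes for the proteolysis and localisation of CDK inhibitors and D-type cyclins, 2 were at an unadjusted p under 0.05. The ubiquitin ligase scaffold Cul4a was at 0.70 with 1 probe and 0.11 with another, and Cops5, a subunit of the COP9 signalosome, at 0.41 and 0.20. The Cul4a probe at 0.70 was dim (2.3 to 45.6) and detected on 4 Nd2-mutant and 3 control arrays. Usp2, a deubiquitinase of cyclin D1, was at -0.71 (SE 0.36, limma adjusted p = 0.639), with -0.31 in males and -1.11 in females. Of 14 tested transcription factors and signals acting on the members, 1 had an unadjusted p under 0.05, Stat3, at 0.67 with that probe but 0.15 and -0.22 with its other 2. Ctnnb1 was at 0.24 and -0.02 and Jun at -0.31. The medians of these 3 lists were -0.09, -0.03 and -0.14. With each gene at its probe of smallest p, a choice made after seeing the data, the sign of the last turned, to 0.072 with 8 positive and 6 negative genes in place of 4 and 10.

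**Figure D5:**
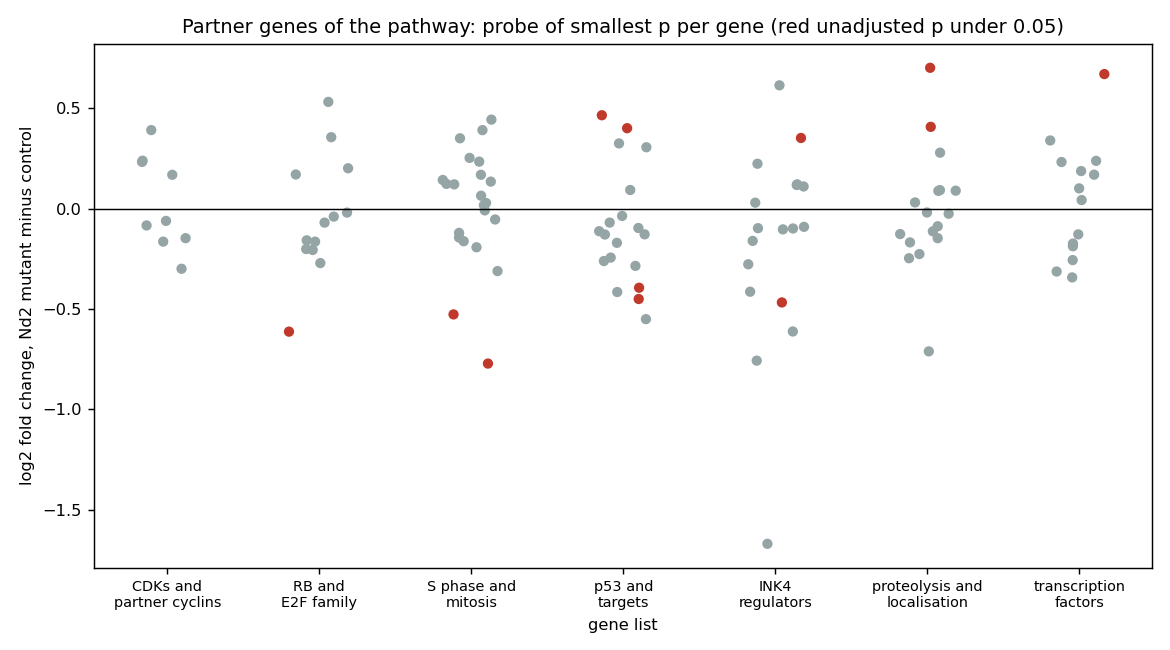
Log2 fold change (Nd2-mutant minus control) of each tested gene in the 7 lists, shown by its probe of smallest p, not the probe of highest mean behind the medians (1 point per gene, horizontal position within a list arbitrary), in red at an unadjusted limma p under 0.05. The 12 red genes are spread over 6 of the 7 lists on both sides of 0, and the lowest point is Id1.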

How the data were processed

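RNA of skin fibroblasts was measured on 8 arrays, with 4 mice in each strain, grouped by the labels. The authors extracted the data in GenomeStudio, named in the submitters' processing notes (version not given in the sources used here), and applied quantile normalization and background subtraction. Intensity values were deposited by the authors on a linear scale. The deposited detection p-value compares a probe with negative control beads. The 2 deposited tables held the same bytes, so normexp with quantile normalization could not be run, and no chip is named that could serve as a block.

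Intensities were floored at 0 and transformed as log2(intensity + 16), which understates differences of dim probes. Probes with a detection p-value under 0.01 on all 4 arrays of at least 1 strain were tested with limma 3.58.1 in R 4.3.3 (2-sided, Benjamini-Hochberg adjustment over 10414 probes), after the script was tested on simulated data. Single probes were also compared by exact permutation. The number of arrays limits the precision. Each array is a separate mouse, cultured once as far as the labels say.

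Members, lists and tests were chosen with earlier results of these data known. The text names all members, Cdk4, Cdk6, Cdk2, Rb1, Trp53 and Mdm2, the 3 genes of smallest p per list, and the 3 probes most like each of the 2 most variable member probes. Lists were matched by symbol, 4 genes through older symbols, and 7 genes were not analysed here. The result of 1 list of cell type markers is not reported here. Other added values, scales, filters, tests, weights, sexes, centring and left-out mice served as alternatives. Promoter sequences are from RefSeq, GRCm38.p6, with entries for 7 members (not Cdkn1c, Ccnd1 and Ccnd2), and promoters were searched for TATAAA as well (12.4% of windows, none of the members').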

Additional observations from a re-analysis of the deposited data

Results flagged for a closer look

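In 3 of 102 groups of 4 mice (member probes and named list probes), 1 mouse lay apart from the other 3 by Dixon's ratio of gap to range beyond its critical value, where chance gives about 1 in 20 groups, or 5.1. Ccnd2 (ILMN_2700166) was high in Nd2-mutant mouse 32, at 2202 against 1722 in the nearest mouse (ratio 0.952). Cdkn1a (ILMN_2846775) was low in Nd2-mutant mouse 35, at 519.8 against 659 (ratio 0.917). Mdm2 (ILMN_1250774) was low in control mouse 17, at 887 against 1192 (ratio 0.846).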

How the results depend on the processing

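Over 22 alternatives, 0 of the 308 values of member probes had an adjusted p under 0.05, and 9 of 14 probes kept their direction throughout, among them all tested probes of Ccnd1, Ccnd2 and Ccnd3, Cdkn1b and Cdkn2c. Other filters, the t-test, a trend in the variance and sex as a term return the same log2 fold change, so no direction could turn there. The remaining alternatives reuse the same mice. The count of member probes at an unadjusted p under 0.05 was 0, but 2 with array weights (against 7.19% of all probes), 1 after sex had been added to the fit (7.98%), 2 in male mice alone (5.04%) and 0 to 3 with single mice left out: 1 without Nd2-mutant mouse 34 (Ccnd1, against 5.4% of all probes), 3 without control 15 (Ccnd1, Cdkn1a and Cdkn1b, against 7.91% of all probes) and 2 without control 17 (Ccnd1, against 14% of all probes). With single mice left out, 0 to 1 member probes were without overlap, and the share over all probes was not computed there. At the adjusted threshold the counts were 0 to 0. Between the sexes, the unadjusted count was 1 with 50 added (against 8.41% of all probes). It was 1 with probes detected on at least 1 array (8.02%) and 4 with array weights (20.7%). With single mice left out it was 0 to 2 (4.79% to 17.3%). List genes at an unadjusted p under 0.05 numbered 12 (against 7.63% of all probes), but 7 on linear intensities (6.02%) and 7 in male mice alone (5.04%). With single mice left out they numbered 6 to 19, and 0 to 0 at the adjusted threshold. There were 6 without Nd2-mutant 35 (5.45% of all probes), 7 without Nd2-mutant 34 (5.4%) and 19 without control 37 (10.8%). These shares are over probes, whereas a list gene counts once if any probe passes. Reversed directions were small: Cdkn1a ILMN_2846776 was at -3.85 intensity units on the linear scale, and, as log2 fold changes, at -0.15 with array weights, -0.10 in female mice alone and -0.14 to 0.15 with single mice left out. In female mice alone, Cdkn1c was at 0.18, Cdkn2a at 0.022 and Cdkn2b at 0.21. With single mice left out the ranges were -0.37 to 0.039 for Cdkn1c, -0.21 to 0.16 for Cdkn2a, -0.26 to 0.12 for Cdkn2b and -0.0042 to 0.18 for Cdkn2d. List medians moved to -0.11 in males and 0.075 in females for proteolysis, 0.053 in males for transcription factors and signals and 0.064 in females for p53. Medians also changed sign for G1 CDKs (0.024 in males, 0.057 in females) and INK4 regulators (0.061 in males). The median of S phase and mitosis genes was -0.013 in males. With each gene at its probe of smallest p, an alternative chosen after seeing the data, the median of transcription factors and signals was 0.072, and the other 6 kept their sign. With single mice left out they ranged from -0.091 to 0.090 for S phase and mitosis genes, -0.21 to -0.03 for G1 CDKs, -0.12 to 0.014 for p53, -0.095 to 0.0025 for proteolysis, -0.13 to -0.04 for RB and E2F, -0.10 to -0.02 for INK4 regulators and -0.17 to 0.01 for transcription factors and signals. Over all probes, 3 had an adjusted p under 0.05 without a filter and 1 with Student's t-test on the log2 values, and none of these was a member. The cause of these differences was not tested. No paired analysis was possible because no mouse number occurs in both strains. Normexp with quantile normalization and the chip as a block were not run. Dim probes, such as that of Cdkn2a, lie close to the added 16, which shrinks their fold changes.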
